A study of Mus musculus with 14 samples.

Results

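PSGL1hi CD4+ T cells of the liver were compared with PSGL1hi CD4+ T cells of the spleen in mice with chronic graft-versus-host disease (cGVHD). The comparison rests on 4 of the 14 libraries of the series, 2 labelled cGVHD-Li-PSGL1hi and 2 labelled cGVHD-Sp-PSGL1hi, chosen by those sample titles. All 4 libraries came from BALB/c recipients of T-cell-depleted bone marrow and splenocytes from C57BL/6 (B6) donors, and donor-derived cells were sorted 30 days after transplantation. The groups thus share donor, recipient, graft and time. They differ in the organ and also in the series of library numbers, so the 2 cannot be told apart. Beside them are set the liver and spleen PSGL1lo cells and the lung PSGL1hi cells of the same kind of recipient, also at 30 days and also with 2 libraries each. The remaining groups of the series were lung PSGL1lo cells and the spleen PSGL1lo cells of GVHD-free recipients given bone marrow without splenocytes. They entered the fit, where they bore on the gene filter, the scaling and the estimate of the spread. Of their levels only that of Selplg in lung PSGL1lo cells is given. Neither the animals behind each library nor any pooling of animals is given in the sources used here, so a p-value here reflects the spread of the libraries alone, which may be technical.

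Chronic graft-versus-host disease follows allogeneic transplantation when donor T cells attack the tissues of the recipient, and the liver is among its main targets. PSGL1, encoded by Selplg, is a surface glycoprotein that binds selectins once it carries the right sugars and that lets T cells roll on activated endothelium. CD4+ T cells that settle in an organ typically keep receptors for its chemokines and matrix and lower the receptors that lead cells out to blood, lymph and lymph nodes, whereas the spleen holds a mixture of circulating, dividing and settled cells. The effector programmes of CD4+ T cells are read from their cytokines: Th1 cells make interferon-gamma, Th2 cells express Il4, Il5 and Il13, and Th17 cells express Il17a and Il22.

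Liver PSGL1hi cells held more transcripts of inflammatory chemokines and cytotoxic proteins than spleen PSGL1hi cells, led by Ccl5 and Ccl3, and far fewer transcripts of the Th2 cytokines Il4, Il5 and Il13. Genes of cell division were mostly lower in the liver, with a median log2 difference of -1.16, and some mitotic genes such as Ccnb1 were lower by several-fold. Ccr7, the chemokine receptor for entry into lymph nodes, was lower as well. Transcripts of macrophages, plasma cells and red cell precursors were higher in the spleen libraries, and hepatocyte transcripts were detected in the liver libraries. Of 13520 genes tested, 7774 differed at an adjusted p under 0.05 (57.5%), 3924 higher (29.0%) and 3850 lower (28.5%) in the liver. Those shares are the background for the counts of list members below. Against a 1.5-fold change, 3123 genes passed (23.1%), 1499 higher and 1624 lower. The 2 libraries of one tissue did not overlap with those of the other for 10972 genes (81.2%).

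The effect of tissue and that of the library series cannot be told apart, since the library numbers in the labels form 1 run for the spleen and another, far higher run for liver and lung. The 4 libraries held 21346229 and 23000993 counts (spleen) and 22380631 and 28033026 counts (liver), and replicate libraries varied by a coefficient of 8.19% in the spleen and 3.77% in the liver beyond sampling noise. Histone genes took 1.69% and 1.47% of the counts in the spleen libraries, but 0.121% in both liver libraries and 0.129% and 0.133% in the lung PSGL1hi libraries, and small RNA genes took 4.77% and 3.81% in the spleen and 0.882% and 0.701% in the liver. The 260 tested histone and small RNA genes were therefore left out of every count and every gene named here. With the genes split by GC content into 5 bins, the median log2 difference between liver and spleen ran from -0.29 in the bin with the lowest GC to 0.19 in the bin with the highest, and over 5 bins by transcript length it lay between -0.067 and 0.04. The corresponding medians of liver against lung, within the same library series, were -0.088 and 0.064 at the lowest and the highest GC. The part of library series and GC content in single genes was not tested. The level in lung PSGL1hi cells, whose libraries belong to the liver's series, is therefore given beside many of the genes below, though not all. Liver and lung PSGL1hi cells differed in 5254 genes (38.9%), 2513 higher (18.6%) and 2741 lower (20.3%) in the liver. That comparison uses the same liver libraries, so its values stand side by side with those against the spleen.

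The sorted identity of the cells was checked on their defining genes. Cd4 stood at 1538 and 1512 CPM (the gene's counts relative to the library total, TMM-scaled) in the 2 spleen libraries and at 2557 and 2686 CPM in the 2 liver libraries, a log2 difference of 0.78 ± 0.06 (± standard error, 2 libraries a group, liver minus spleen throughout, adjusted p = 2.8e-10). Adjusted p-values of single genes come from quasi-likelihood F tests in edgeR, adjusted by Benjamini-Hochberg over all genes. Each standard error is the log2 difference, without its sign, divided by the square root of that test's F. The fit behind it estimated the spread from all 14 libraries of the series. Selplg, the gene of the sorted protein, stood at 516 and 491 CPM in the spleen and 909 and 937 CPM in the liver (0.87 ± 0.09, adjusted p = 2.8e-08), and at 925 and 994 CPM in the lung. Both liver libraries lay above both spleen libraries for these genes. Within each organ Selplg was lower in the PSGL1lo libraries, at 281 and 238 CPM in the spleen, 612 and 540.2 CPM in the liver and 383 and 456 CPM in the lung, in the order that the sort labels give. The library names in the labels number the 2 sorts in opposite ways in liver and lung, and the sample titles were followed, whose order is the one in which Selplg stood in both organs. Cd8a, which marks the other main T cell lineage, was detected in both tissues, at 47.3 and 46.2 CPM in the spleen and 94.9 and 96.8 CPM in the liver. The defining genes of the label, Cd4 and the CD3 genes, were thus present in all 4 libraries.

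Within the CD4 T cell identity list, 11 of 16 genes were higher and 3 lower in the liver, with a median log2 difference of 0.50 against -0.01 over all genes tested. The subunits of the CD3 complex, which pass on the signal of the T cell receptor, did not move by the same amount. Cd3e stood at 243 and 206 CPM in the spleen and 1074 and 1219.8 CPM in the liver (2.35 ± 0.09, adjusted p = 1.8e-15). Cd3d stood at 285 and 255 CPM in the spleen and 438 and 447 CPM in the liver (0.71 ± 0.08, adjusted p = 2.5e-07), and Cd3g at 842 and 979.8 CPM in the spleen and 1291 and 1329 CPM in the liver (0.52 ± 0.07). The difference of Cd3e was thus several-fold where those of its partners were under 2-fold, and the lung libraries, of the liver's library series, held 1018 and 1030.3 CPM of Cd3e, close to the liver. Thy1, a surface glycoprotein of all mouse T cells, showed the same arrangement, with 446 and 393 CPM in the spleen, 1833 and 1949.6 CPM in the liver and 2593 and 2547 CPM in the lung. Cd28, the costimulatory receptor for B7 molecules, was lower in the liver, at 375 and 352 against 648 and 694 CPM (-0.89 ± 0.08). The lung held 1102 and 1069 CPM of Cd28, above both. Zap70, a kinase of the T cell receptor pathway, did not pass the test (0.04 ± 0.07, adjusted p = 0.66).

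**Figure D1:**
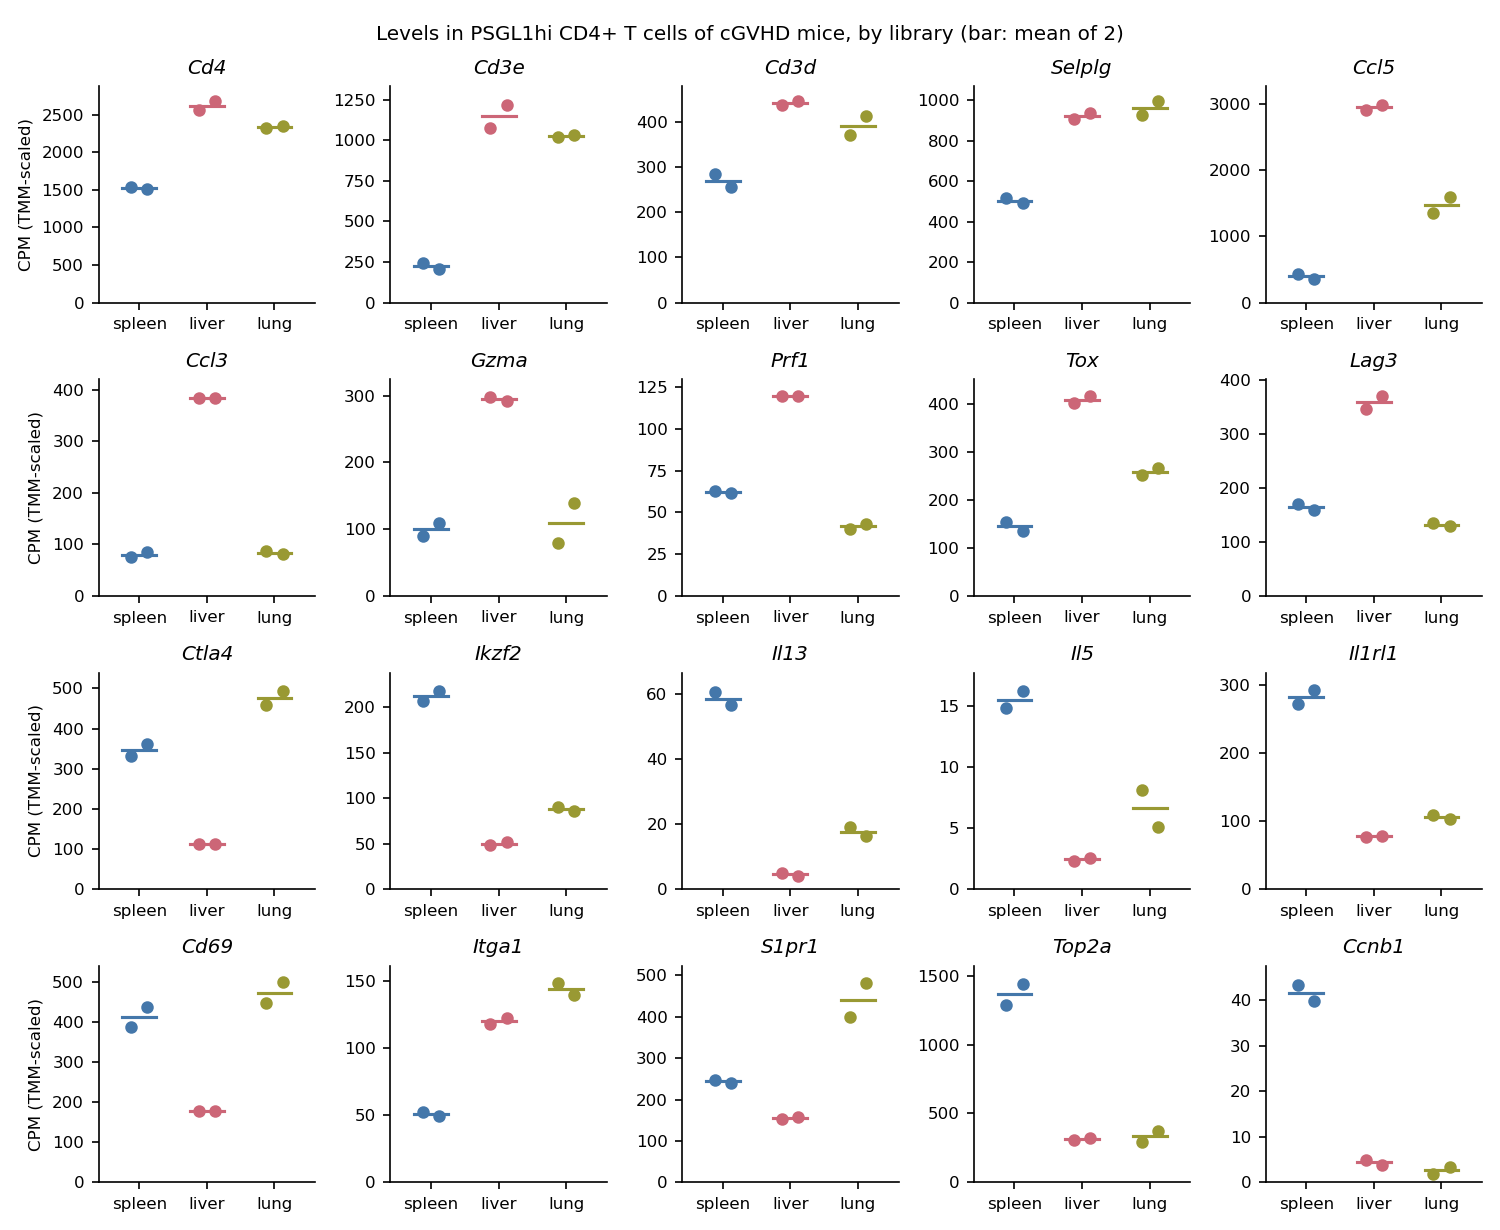
Level of 20 genes in each PSGL1hi library of spleen, liver and lung (y axis: TMM-scaled CPM, each starting at 0; points: libraries; bar: mean of the 2 libraries of a tissue). Ccl5, Ccl3, Gzma, Prf1, Tox and Lag3 are highest in the liver, Il13, Il5, Top2a and Ccnb1 are highest in the spleen, and for Cd3e and Selplg liver and lung lie together above the spleen.

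Genes of the Th1 and cytotoxic list were mostly higher in the liver. Of 25 tested, 15 were higher and 2 lower, with a median of 0.48. Ccl5, a chemokine that draws T cells and monocytes, stood at 432 and 358 CPM in the spleen and 2907 and 2979 CPM in the liver (2.9 ± 0.13, adjusted p = 5.4e-14). Ccl3, another inflammatory chemokine, stood at 75.4 and 84.6 CPM in the spleen and 384 and 385 CPM in the liver (2.26 ± 0.08, adjusted p = 1.9e-15). For both chemokines the liver libraries agreed closely and lay far above the spleen. The lung libraries held 1344 and 1598 CPM of Ccl5 and 87.8 and 80.4 CPM of Ccl3, so the liver also exceeded the lung, by 1.0 ± 0.12 and 2.19 ± 0.08 on the log2 scale (adjusted p = 1.2e-06 and 1.2e-14).

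Genes of the granule proteins that kill target cells were higher as well. Gzma, a granzyme, stood at 89.7 and 109.9 CPM in the spleen and 298 and 292 CPM in the liver (1.56 ± 0.20, adjusted p = 9.2e-07). Prf1, which encodes the pore-forming protein perforin, stood at 62.8 and 61.4 CPM in the spleen and 119.5 and 119.6 CPM in the liver (0.95 ± 0.08). Gzmb, the granzyme that activates caspases, stood at 313 and 305 CPM in the spleen and 452 and 448 CPM in the liver, a smaller difference of 0.54 ± 0.14 (adjusted p = 0.0017) that DESeq2 did not call (0.51). All 3 genes were lower in the lung than in the liver: in the lung Gzma stood at 78.7 and 139 CPM, Prf1 at 40.2 and 43.3 CPM and Gzmb at 164 and 213 CPM. Beside these genes, the CD8 T cell genes Cd8a and Cd8b1 were higher in the liver than in the spleen (1.04 ± 0.10 and 0.56 ± 0.11, adjusted p = 1.1e-08 and 0.00021) and were lowest in the lung. Summed over both CD8 genes the level was 77.6 and 77.5 CPM in the spleen, 141 and 142 CPM in the liver and 28.5 and 30.6 CPM in the lung. The part of CD8+ cells in the cytotoxic genes was not tested.

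The cytokines Tnf and Ifng were higher in the liver too. Tnf, an inflammatory cytokine, stood at 41.5 and 36 CPM in the spleen and 149 and 150.4 CPM in the liver (1.95 ± 0.11, adjusted p = 3.2e-12), and at 111 and 117 CPM in the lung. Ifng stood at 194 and 212 CPM in the spleen and 360.5 and 359 CPM in the liver (0.83 ± 0.07, adjusted p = 4.3e-09), and the lung was higher than the liver, at 475 and 441 CPM. Tbx21, which encodes the Th1 lineage factor T-bet, was higher in the liver by 0.48 ± 0.10, and Il12rb2, a chain of the receptor for the Th1-inducing cytokine interleukin-12, by 1.06 ± 0.11. The 2 genes of the list that were lower in the liver were Fasl, a death ligand (-0.53 ± 0.08), and Zeb2, a factor of terminally differentiated effector cells (-0.84 ± 0.11).

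Th2 genes went the other way: 11 of 13 tested were lower in the liver and 1 was higher, with a median of -1.26. Il13, which drives mucus production and fibrosis, stood at 60.7 and 56.7 CPM in the spleen and 5.12 and 4.02 CPM in the liver (-3.69 ± 0.20, adjusted p = 1.5e-12). Il4, which induces the Th2 fate and antibody class switching, stood at 20.4 and 24.9 CPM in the spleen and 1.84 and 2.32 CPM in the liver (-3.43 ± 0.26, adjusted p = 2.6e-10). Il5, the growth factor of eosinophils, stood at 14.8 and 16.2 CPM in the spleen and 2.34 and 2.57 CPM in the liver (-2.65 ± 0.25, adjusted p = 1.1e-08). For all 3 cytokines the liver libraries held a small remainder of the spleen level. The lung libraries lay between the tissues, at 19.1 and 16.3 CPM for Il13, 7.0 and 4.07 CPM for Il4 and 8.08 and 5.13 CPM for Il5.

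Il1rl1, which encodes the receptor for the alarmin interleukin-33, was also lower in the liver, at 77.2 and 78.5 against 273 and 293 CPM (-1.86 ± 0.10). Areg, the tissue repair factor amphiregulin, stood at 2.02 and 2.39 CPM in the liver against 28.5 and 28.5 CPM in the spleen (-3.68 ± 0.16), but reached 42 and 37.3 CPM in the lung. The nuclear receptor gene Pparg fell from 16.4 and 17.8 to 5.57 and 5.8 CPM. The exception was Gata3, the lineage factor of Th2 cells and a gene that all T cells use, which was higher in the liver, at 220.2 and 246 against 111 and 92.6 CPM (1.19 ± 0.09, adjusted p = 1.2e-10), and higher again in the lung at 452 and 442 CPM. Ptgdr2, a prostaglandin receptor of Th2 cells, did not pass the test (-0.12 ± 0.41, adjusted p = 0.82).

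**Figure D2:**
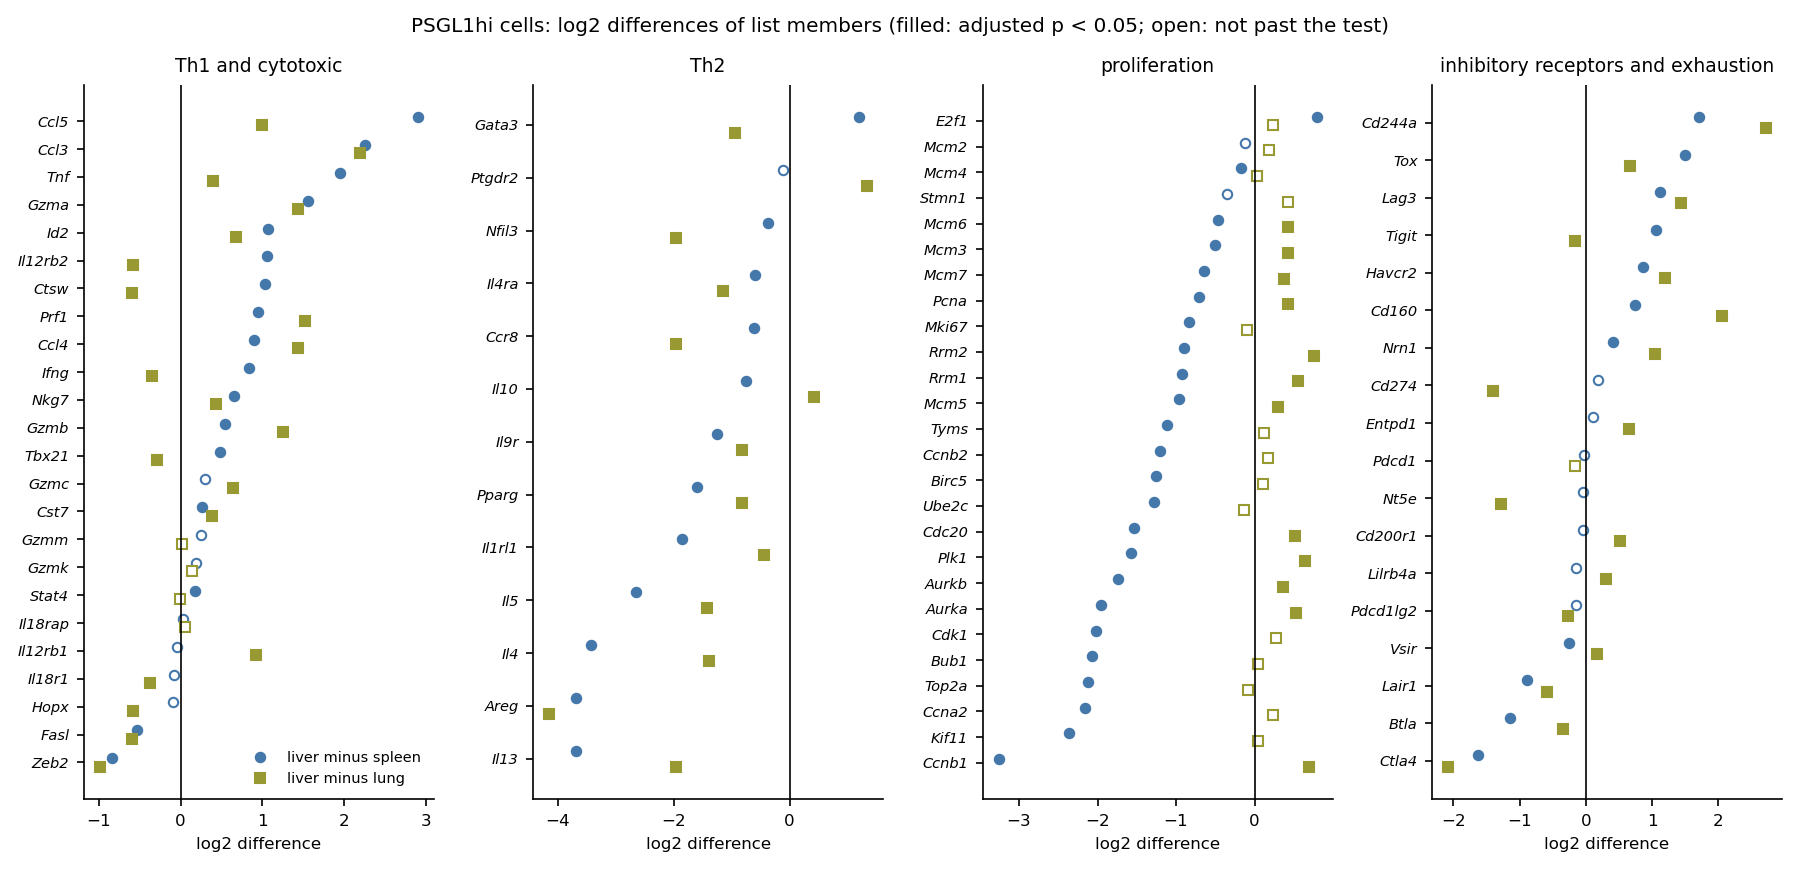
Log2 differences of tested members of 4 gene lists in PSGL1hi cells (x axis: log2 difference; circles: liver minus spleen; squares: liver minus lung; filled: adjusted p under 0.05). Th2 and proliferation genes lie mostly left of 0 against the spleen, whereas against the lung most proliferation genes lie at or right of 0 and Th2 genes mostly left.

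Because the Th2 and the mitotic genes moved together within each group, the promoters of a few of them are shown with short motifs found by a search of both strands. The windows are the 250 bases before the start of the gene in RefSeq (build GRCm38.p6), written along the gene's strand with matches in capitals. Shown are the 3 genes of each list with the largest fall among those with an entry, and Mcm2, which was not called different. For the Th2 genes the motif was a GATA hexamer, the letters GATA with A or T before them and A or G after them, which GATA-family factors bind. It was present in the promoters of 29.7% of 27025 genes, in 6 of the 10 Th2 genes with an entry that were lower in the liver (60.0%) and in 0 of the 3 others. Those 3 include Il9, which had 0 counts in the liver and spleen PSGL1hi libraries and was not tested. For the mitotic genes the motif was CCAAT, the box of the factor NF-Y, written ATTGG on the opposite strand. It was present for 37.5% of the 27025 genes, for 18 of the 20 proliferation genes with an entry that were lower in the liver (90.0%), and for 1 of the 2 that were not lower. Il13 (chr11:53634703-53634952, minus strand) and Il4 (chr11:53617339-53617588, minus strand, the first of 2 entries) show 1 hexamer each, and Areg (chr5:91139349-91139598, plus strand) shows 0. Ccnb1 (chr13:100786487-100786736, minus strand), the gene of the list with the largest fall, shows 2 CCAAT matches, Kif11 (chr19:37376132-37376381, plus strand) 1 and Top2a (chr11:99024190-99024439, minus strand) 6. Mcm2 (chr6:88898781-88899030, minus strand), whose level was not called different, shows 1, so the motif is not limited to genes that moved. A match describes these letters in this window and is neither a binding site nor a cause.
Il13: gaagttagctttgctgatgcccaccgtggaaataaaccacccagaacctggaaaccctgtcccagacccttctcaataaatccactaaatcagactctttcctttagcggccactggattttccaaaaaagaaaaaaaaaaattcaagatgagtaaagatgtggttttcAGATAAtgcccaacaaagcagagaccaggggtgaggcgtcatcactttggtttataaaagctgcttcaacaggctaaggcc
Areg: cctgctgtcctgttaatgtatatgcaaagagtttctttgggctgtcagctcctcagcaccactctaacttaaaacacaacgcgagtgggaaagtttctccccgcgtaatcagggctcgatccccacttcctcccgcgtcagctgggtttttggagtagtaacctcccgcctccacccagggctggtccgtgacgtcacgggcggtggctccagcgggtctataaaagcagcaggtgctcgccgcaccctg
Il4: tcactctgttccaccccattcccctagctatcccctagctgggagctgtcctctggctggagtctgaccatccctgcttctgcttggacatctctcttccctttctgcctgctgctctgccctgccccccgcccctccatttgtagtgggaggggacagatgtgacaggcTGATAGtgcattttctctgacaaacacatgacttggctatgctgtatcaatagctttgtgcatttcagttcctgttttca
Ccnb1: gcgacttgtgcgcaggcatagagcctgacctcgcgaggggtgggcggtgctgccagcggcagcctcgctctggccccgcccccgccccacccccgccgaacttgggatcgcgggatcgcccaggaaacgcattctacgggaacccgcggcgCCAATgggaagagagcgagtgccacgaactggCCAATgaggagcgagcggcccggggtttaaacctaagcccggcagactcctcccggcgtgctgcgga
Kif11: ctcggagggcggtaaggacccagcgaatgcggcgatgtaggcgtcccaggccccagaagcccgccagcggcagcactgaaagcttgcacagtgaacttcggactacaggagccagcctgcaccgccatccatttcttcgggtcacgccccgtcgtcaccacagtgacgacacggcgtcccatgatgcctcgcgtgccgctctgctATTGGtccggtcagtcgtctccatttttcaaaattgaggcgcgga
Top2a: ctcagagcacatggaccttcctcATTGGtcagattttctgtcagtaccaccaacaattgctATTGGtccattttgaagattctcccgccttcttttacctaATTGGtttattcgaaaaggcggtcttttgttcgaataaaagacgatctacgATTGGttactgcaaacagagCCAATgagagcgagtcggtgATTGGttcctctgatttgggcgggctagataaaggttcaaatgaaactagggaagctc
Mcm2: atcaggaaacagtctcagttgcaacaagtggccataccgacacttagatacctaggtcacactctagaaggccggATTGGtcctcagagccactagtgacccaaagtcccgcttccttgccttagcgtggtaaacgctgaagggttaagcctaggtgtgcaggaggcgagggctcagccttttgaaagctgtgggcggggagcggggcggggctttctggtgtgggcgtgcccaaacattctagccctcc

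Genes of cell division were lower in the liver with few exceptions, 23 of 26 against 1 higher, with a median of -1.16. Ccnb1, the cyclin that starts mitosis, stood at 43.2 and 39.8 CPM in the spleen and 4.94 and 3.81 CPM in the liver (-3.26 ± 0.20, adjusted p = 8.3e-12). Cdk1, its partner kinase, stood at 134 and 131 CPM in the spleen and 33.7 and 31.5 CPM in the liver (-2.02 ± 0.13, adjusted p = 1.7e-11). Top2a, the topoisomerase that untangles sister chromosomes, stood at 1288 and 1439 CPM in the spleen and 307 and 321 CPM in the liver (-2.12 ± 0.09, adjusted p = 3.6e-14). RefSeq lists a pseudogene copy of Ccnb1, so that counting may have missed some of its reads. The spleen libraries exceeded the liver libraries of these genes without overlap, and the same held for the spindle motor gene Kif11 (-2.36 ± 0.12), the S-phase cyclin Ccna2 (-2.16 ± 0.12) and the checkpoint kinase Bub1 (-2.07 ± 0.13).

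The 6 subunits of the replicative helicase ran from Mcm5 (-0.96 ± 0.09) to Mcm2, at 204 and 190.4 CPM in the spleen and 179 and 182 CPM in the liver (-0.12 ± 0.08, adjusted p = 0.17), and the proliferation antigen Mki67 stood at 968 and 997 CPM in the spleen and 535 and 568 CPM in the liver (-0.83 ± 0.07). E2f1, a factor that turns on S-phase genes, was the exception, at 20.6 and 22 CPM in the liver against 12.2 and 12.4 CPM in the spleen (0.79 ± 0.13). In lung PSGL1hi cells the mitotic genes stood near the liver level, with 1.95 and 3.41 CPM of Ccnb1, 23.9 and 30.2 CPM of Cdk1 and 294 and 376 CPM of Top2a. Of the 26 genes, 12 were higher and 0 lower in liver than in lung. In the PSGL1lo cells, where 57.2% of all genes differed between liver and spleen (29.2% higher, 27.9% lower), 22 of 26 were lower in the liver than in the spleen and 1 was higher, with a median of -0.61. The tissue difference itself was more negative in PSGL1hi than in PSGL1lo cells for 11 of the 26 genes and more positive for 0, against 2.51% and 4.22% of all genes. Among them were Ccnb1 (-1.75 ± 0.29, adjusted p = 0.00086), Cdk1 (-1.2 ± 0.18) and Kif11 (-0.83 ± 0.16). For these 3 genes the call held in each of 8 fits without 1 library.

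Glycolysis genes were lower in the liver in 13 of 22 cases and higher in 5 (3 without spleen replicate 2), with a median of -0.55. Tpi1, triose phosphate isomerase, stood at 207 and 229.5 CPM in the spleen and 85 and 84.5 CPM in the liver (-1.36 ± 0.08). Slc16a3, a lactate exporter, stood at 42.5 and 36.2 CPM in the spleen and 12.6 and 12.7 CPM in the liver (-1.63 ± 0.14). The lung libraries again stood near the liver, at 77.4 and 85.8 CPM for Tpi1 and 13.7 and 11.6 CPM for Slc16a3. In the cholesterol and fatty acid list 9 of 22 genes were higher and 5 lower, the latter 2 without liver replicate 1 and 3 without spleen replicate 1 or liver replicate 2. Srebf2, the regulator of sterol synthesis, rose from 118 and 93.4 to 295 and 313 CPM (1.53 ± 0.09). The cholesterol exporters moved oppositely: Abca1 fell from 45.1 and 44.2 to 2.2 and 2.79 CPM (-4.14 ± 0.14, adjusted p = 5.1e-16) and Abcg1 was lower (-1.26 ± 0.07). The lung stood at 14.4 and 15 CPM of Abca1, which is also a gene of macrophages, whose transcripts are described below.

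Receptors that guide T cells out of tissue were split. Of the 14 genes of egress and lymph node homing, 4 were higher and 8 lower in the liver (median -0.33). Ccr7, the chemokine receptor for entry into the T cell zone, stood at 12.8 and 12.1 CPM in the spleen and 2.74 and 4.28 CPM in the liver (-1.8 ± 0.15, adjusted p = 2e-09). S1pr1, the sphingosine-1-phosphate receptor that draws cells into blood and lymph, stood at 248 and 241 CPM in the spleen and 152 and 157 CPM in the liver (-0.66 ± 0.09, adjusted p = 2e-06). The groups did not overlap for either receptor, and the lung stood above the liver for both, at 36.5 and 38.9 CPM for Ccr7 and 399.9 and 482 CPM for S1pr1. Klf2, the factor that turns on S1pr1, was slightly higher in the liver, at 158 and 162 against 119.8 and 109 CPM (0.48 ± 0.13, adjusted p = 0.0035), a call lost without spleen replicate 2 (0.40). Leaving out that library also took the number of list genes higher in the liver from 4 to 2. Il7r, a survival receptor, did not pass the test (0.16 ± 0.08, adjusted p = 0.094).

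In the tissue residency list 16 of 23 genes were higher and 4 lower in the liver, with a median of 0.37. Itga1, a collagen-binding integrin chain of settled T cells, stood at 52.8 and 49.6 CPM in the spleen and 118 and 123 CPM in the liver (1.23 ± 0.11, adjusted p = 5.1e-09). Itgal, a chain of the adhesion receptor LFA-1, stood at 718 and 610.3 CPM in the spleen and 2711 and 2813 CPM in the liver (2.06 ± 0.07, adjusted p = 1.1e-15). Cdh1, E-cadherin, stood at 12 and 10.8 CPM in the spleen and 54.5 and 58.7 CPM in the liver (2.32 ± 0.11), and Runx3, a factor of resident and cytotoxic T cells, at 86 and 77.2 CPM in the spleen and 341 and 367 CPM in the liver (2.12 ± 0.07). These genes were as high or higher in the lung, at 149 and 139.6 CPM for Itga1, 211 and 193 CPM for Cdh1 and 508 and 504 CPM for Runx3, except Itgal at 1879 and 1941 CPM. Cxcr6, the chemokine receptor of liver-patrolling T cells, was higher in the liver by a small margin, 996 and 931 against 725 and 824 CPM (0.32 ± 0.08, adjusted p = 0.0014). Itgae, the CD103 integrin chain, differed by 0.37 ± 0.09 and Prdm1, which encodes Blimp-1, by 0.34 ± 0.09; the Prdm1 call was lost without spleen replicate 2 (0.28). Cd69, which blocks S1PR1 at the surface and is the usual marker of residency, went the other way, at 178 and 178 CPM in the liver against 388 and 437 CPM in the spleen (-1.21 ± 0.09, adjusted p = 4.6e-10) and 447 and 499 CPM in the lung.

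Among chemokine receptors 3 of 17 were higher and 7 lower in the liver. Cxcr4, the receptor for the marrow and stromal chemokine CXCL12, stood at 226 and 228 CPM in the spleen and 92.1 and 89.3 CPM in the liver (-1.33 ± 0.07), against 849 and 846 CPM in the lung. Gpr183, an oxysterol receptor that positions cells in lymphoid tissue, was lower (-1.17 ± 0.08), and Ccr2, a receptor of inflammatory migration, did not pass the test (0.05 ± 0.09, adjusted p = 0.67). The integrin and adhesion list held 7 higher and 7 lower genes of 20, with Jaml, a junctional adhesion molecule, at 1.34 ± 0.10 and Itgav, the alpha-v chain, at -0.99 ± 0.09. For the enzymes that build the selectin-binding sugars on PSGL1, 4 of 15 were higher and 6 lower. Fut7, the fucosyltransferase that completes the selectin ligand, stood at 9.59 and 9.77 CPM in the spleen and 5.62 and 5.55 CPM in the liver (-0.79 ± 0.20, adjusted p = 0.0018), whereas the sialyltransferases St3gal3 (1.25 ± 0.13) and St3gal6 (0.62 ± 0.11) were higher. The count of lower enzymes fell from 6 to 2 without liver replicate 2.

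Follicular help genes were lower in 13 and higher in 6 of 25 cases (median -0.38). The largest falls of the list were those of Cebpa, a myeloid factor (-3.62 ± 0.24), and of Il4, described above with the Th2 genes. Il21, the cytokine that drives germinal centre B cells, stood at 127 and 133 CPM in the spleen and 86.2 and 83.2 CPM in the liver (-0.62 ± 0.09, adjusted p = 3.5e-06), above the lung at 21.6 and 17.7 CPM. Cd40lg, the ligand that licenses B cells, was higher in the liver, at 146 and 147 against 55.9 and 58.8 CPM (1.35 ± 0.09). The lung held more Cd40lg than the liver, at 373 and 307 CPM. The lineage regulators Bcl6 (0.66 ± 0.14) and Cxcr5 (0.45 ± 0.10) were higher too, Bcl6 at 15.6 and 16.1 CPM and Cxcr5 at 22.2 and 20.9 CPM in the liver. In the naive and memory list 10 of 18 genes were higher and 3 lower, a count of lower genes that fell to 1 without spleen replicate 1. Tcf7, which encodes TCF-1, the factor of memory and self-renewing T cells, stood at 56.9 and 56.7 CPM in the spleen, 276 and 273 CPM in the liver and 739 and 816 CPM in the lung (2.27 ± 0.08 for liver against spleen, adjusted p = 8.8e-16). Its tissue difference exceeded that of PSGL1lo cells by 0.99 ± 0.11 (adjusted p = 1.5e-05).

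Th17 genes were higher in the liver in 8 of 11 cases and lower in 0, with a median of 2.44. The summed level of the list differed far less, at 867 and 851 CPM in the spleen and 984 and 1008 CPM in the liver. Some of its genes were near the floor in the spleen, such as Il17a below. Ccr6, the chemokine receptor of Th17 cells, stood at 1.08 and 1.38 CPM in the spleen and 9.93 and 8.48 CPM in the liver (2.89 ± 0.22, adjusted p = 2.3e-10). The lung was higher than the liver, at 15.4 and 18.5 CPM. The cytokine Il17a itself stood at 0.0468 and 0.346 CPM in the spleen, at 1.57 and 1.78 CPM in the liver and at 6.22 and 5.92 CPM in the lung, where 3 counts correspond to 0.13 to 0.14 CPM in the spleen libraries. In PSGL1lo cells 5 of the 11 genes were higher and 3 lower in the liver, with a median of 0.28.

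Of 15 regulatory T cell genes 2 were higher and 7 lower in the liver. Foxp3, the lineage factor, did not pass the test, at 20.5 and 16.6 CPM in the spleen and 19.2 and 22.3 CPM in the liver (0.16 ± 0.12, adjusted p = 0.27). Ikzf2, which encodes Helios, stood at 207 and 218 CPM in the spleen and 48 and 52.2 CPM in the liver (-2.08 ± 0.10, adjusted p = 6.7e-14). Ctla4, an inhibitory receptor that competes for B7 molecules, stood at 333 and 361 CPM in the spleen and 112 and 113 CPM in the liver (-1.62 ± 0.08, adjusted p = 4.9e-13). Both were thus several-fold lower in the liver without a difference in Foxp3 being detected, and the lung held 458 and 495 CPM of Ctla4, above both. In bulk samples, fewer cells of a type and less RNA per cell cannot be told apart.

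Inhibitory receptors did not move as a block, with 7 of 18 genes higher and 4 lower. Tox, a nuclear factor of persistently stimulated T cells, stood at 155 and 136 CPM in the spleen and 402 and 416 CPM in the liver (1.5 ± 0.07, adjusted p = 2.4e-13). Lag3, a receptor for class II molecules, stood at 171 and 159 CPM in the spleen and 347 and 370.3 CPM in the liver (1.12 ± 0.08, adjusted p = 4.2e-11). Havcr2, which encodes TIM-3, was higher by 0.86 ± 0.10 and Tigit by 1.06 ± 0.07. For Tox and Lag3 the liver also exceeded the lung, which held 251 and 266 CPM of Tox and 135 and 129 CPM of Lag3. Besides Ctla4, the receptor gene Btla was lower in the liver (-1.14 ± 0.09). Pdcd1, which encodes PD-1, stood at 404 and 395 CPM in the spleen and 381 and 401 CPM in the liver and did not pass the test (-0.03 ± 0.07, adjusted p = 0.74).

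**Figure D3:**
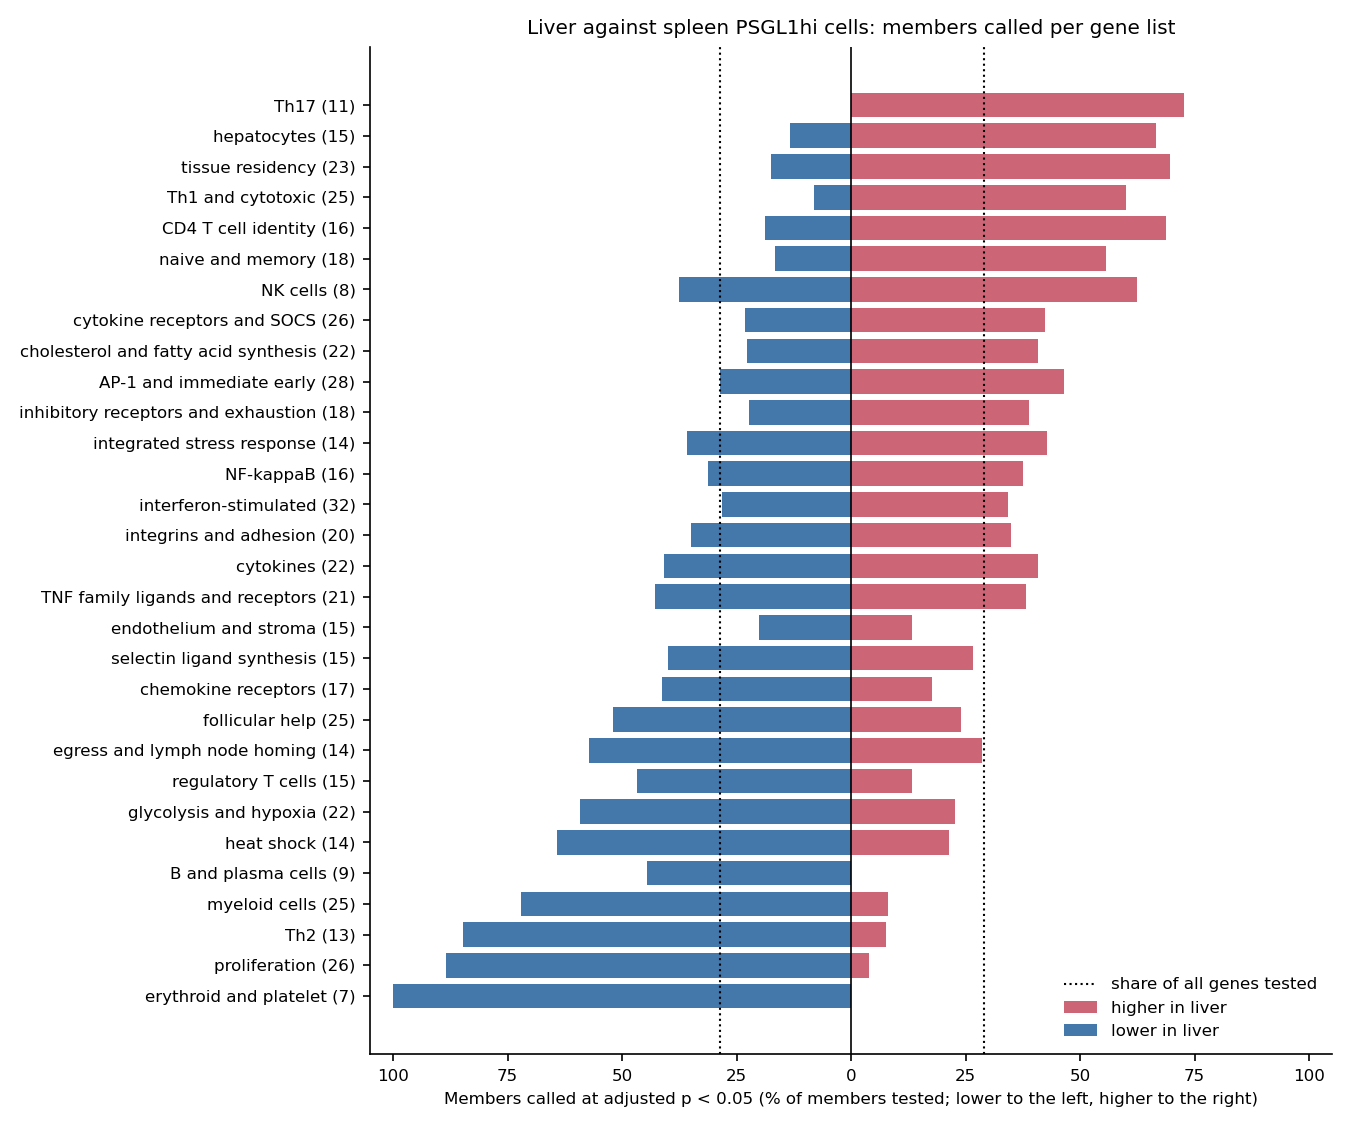
Share of the tested members of 30 gene lists that were higher (right) or lower (left) in liver than in spleen PSGL1hi cells at an adjusted p under 0.05 (x axis: percent of members tested, numbers tested in brackets; dotted lines: shares over all genes, 29.0% higher and 28.5% lower). Proliferation, Th2, myeloid and erythroid genes reach furthest to the left and Th17, tissue residency, CD4 T cell identity and hepatocyte genes furthest to the right; the CD8 list, with 2 members, is not drawn.

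Genes that respond within minutes to stimulation were mixed. In the AP-1 and immediate early list 13 of 28 were higher and 8 lower in the liver. Egr1, an early factor of receptor signalling, stood at 60.5 and 54.6 CPM in the spleen and 352 and 353 CPM in the liver (2.61 ± 0.14), and Myc, a growth factor-induced regulator, at 20.4 and 17.2 CPM in the spleen and 96.6 and 94 CPM in the liver (2.34 ± 0.11). Atf3, a stress-induced factor, went from 47.4 and 53.6 down to 8.27 and 9.61 CPM (-2.49 ± 0.14). The lung held liver-like levels of Egr1 (349 and 435 CPM) and Myc (97 and 104 CPM) but more Atf3 (138 and 138 CPM), and Fos did not pass the test (0.09 ± 0.10, adjusted p = 0.45). Heat shock genes were lower in 9 and higher in 3 of 14 cases. The summed level of the list went the other way, at 3469 and 3493 CPM in the spleen and 3967 and 4039 CPM in the liver. The inducible chaperone genes Hspa1a and Hspa1b, near-identical copies whose reads may be split, followed 1 order. Hspa1a stood at 11.4 and 10.5 CPM in the spleen, 3.06 and 2.94 CPM in the liver and 1498 and 1343 CPM in the lung, and the liver was below the spleen (-1.87 ± 0.14). Hspa1b stood at 28 and 25.5 CPM, 7.5 and 6.96 CPM and 2117 and 1926 CPM in the same tissues. Liver and spleen libraries were thus both far below the lung libraries. The part of such stress transcripts in the tissue differences was not tested.

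NF-kappaB genes numbered 6 higher and 5 lower of 16. Its feedback inhibitor Tnfaip3 stood at 1933 and 1839 CPM in the spleen, 680.5 and 755 CPM in the liver and 5912 and 6024 CPM in the lung (-1.39 ± 0.08 for liver against spleen), and Nfkbiz, an inducible cofactor, was lower as well (-1.7 ± 0.08). Of 32 interferon-stimulated genes 11 were higher and 9 lower, close to the shares over all genes. Within them the membrane proteins that restrict virus entry were higher, Ifitm1 at 169 and 180.0 against 53.9 and 47.3 CPM (1.79 ± 0.14), Ifitm2 by 1.62 ± 0.08 and Ifitm3 by 1.42 ± 0.13. Ifi44 was lower (-1.64 ± 0.31). The cytokine receptor and SOCS list had 11 higher and 6 lower of 26. Il2rg, the common gamma chain, stood at 494 and 479.8 CPM in the spleen and 1024 and 1087 CPM in the liver (1.12 ± 0.06), and the STAT5-induced inhibitor Cish at 126 and 98.2 CPM in the spleen and 368 and 373 CPM in the liver (1.72 ± 0.09). Socs3, the inhibitor of interleukin-6 signalling, was lower (-1.12 ± 0.09). The integrated stress response list was split as well, with 6 of 14 higher and 5 lower. The cytokine list had 9 higher and 9 lower of 22, and the TNF family list 8 and 9 of 21.

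Transcripts of other cell types differed strongly between the tissues. In the myeloid list 18 of 25 genes were lower in the liver and 2 higher (4 without liver replicate 2), with a median of -2.83. Its summed level was 1417 and 1427 CPM in the spleen libraries, 230.1 and 175 CPM in the liver and 1437 and 1779.6 CPM in the lung. C1qa, a complement gene of macrophages, stood at 68.4 and 72.8 CPM in the spleen and 2.61 and 1.6 CPM in the liver (-5.1 ± 0.25, adjusted p = 1.8e-13), and the class II gene H2-Aa at 208 and 218 CPM in the spleen and 15.8 and 12.9 CPM in the liver (-3.9 ± 0.17). The 2 myeloid genes higher in the liver mark Kupffer cells, the liver's resident macrophages: Clec4f, with 0 counts in both spleen libraries and 2.02 and 1.38 CPM in the liver (at least 12.6-fold, against a floor of 3 counts per library), and Vsig4, at 0.0468 and 0.0432 CPM in the spleen and 1.21 and 0.906 CPM in the liver.

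All 7 tested erythroid and platelet genes were lower in the liver, their list summing to 80.2 and 78.5 CPM in the spleen and 1.93 and 1.23 CPM in the liver. Members kept by the filter only through spleen libraries had to be lower. The globin genes Hba-a1, Hba-a2, Hbb-b1 and Hbb-b2 were at 0 counts in all 4 libraries, but as near-identical copies they can lose their reads in counting. Among B and plasma cell genes, 4 of 9 tested were lower and 0 higher (2 lower without spleen replicate 1), the sums being 50.9 and 57.6 CPM in the spleen and 4.45 and 4.39 CPM in the liver. Most of the spleen sum was Jchain, the joining chain of secreted antibodies, at 40.7 and 49 CPM, while the B cell marker Ms4a1 lay at 0.281 CPM or below in every PSGL1hi library of both tissues. NK cell genes were higher in 5 and lower in 3 of 8 cases. The summed level of that list was 191 and 225 CPM in the spleen and 351 and 326 CPM in the liver, with Klrk1, the NKG2D receptor that activated T cells also carry, at 124 and 125 CPM in the liver. Ncr1, the defining NK cell gene, lay at 0.145 CPM or below in these 4 libraries.

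Hepatocyte genes were detected in the liver fraction. Alb, albumin, had 0 counts in both spleen libraries and stood at 16.3 and 13.1 CPM in the liver, at least 109-fold higher. The fibrinogen genes were at 0 counts in the spleen as well, with Fgb at 3.32 and 2.28 CPM, Fga at 1.75 and 1.81 CPM and Fgg at 1.53 and 1.49 CPM in the liver. In all, 10 of 15 tested hepatocyte genes were higher and 2 lower in the liver, the latter being Apoe (-3.22 ± 0.16) and Trf (-2.83 ± 0.12), which macrophages also express. Since these 2 genes hold most of the list's level, its sum was higher in the spleen (237 and 253 CPM) than in the liver (108 and 95.6 CPM). Of its 22 genes, 15 were at 0 counts in both spleen libraries. Any of these that were tested could only come out higher in the liver, so the count of higher genes was partly fixed in advance. Of 15 endothelial and stromal genes 2 were higher (1 without any single library of the 4) and 3 lower, with sums of 88.0 and 84.5 CPM in the spleen and 118 and 124 CPM in the liver. The part of other cell types in the T cell gene differences was not tested.

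**Figure D4:**
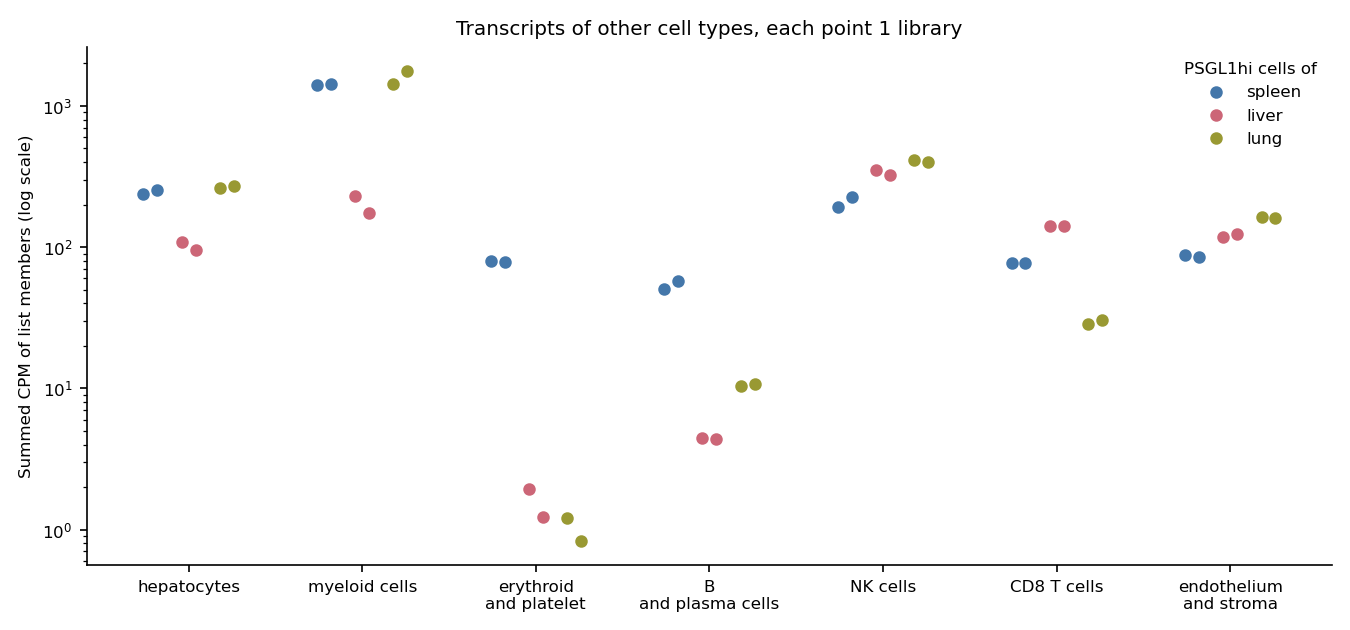
Summed level of marker lists of other cell types in each PSGL1hi library (y axis: summed TMM-scaled CPM, log scale; points: libraries). Myeloid sums are 1417 and 1427 CPM in the spleen and 230.1 CPM or less in the liver, erythroid sums are 78.5 CPM or more in the spleen and 1.93 CPM or less in the liver, and CD8 sums are highest in the liver.

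The genes with the largest differences largely repeated these cell types among those lower in the liver. Retnla, a product of alternatively activated macrophages, stood at 19.8 and 24.7 CPM in the spleen and had 0 counts in both liver libraries (at least 182-fold lower), and Ccl8, a monocyte-attracting chemokine, stood at 37.3 and 46.8 CPM in the spleen and 0.180 and 0.0725 CPM in the liver. Mrc1, the macrophage mannose receptor, stood at 107 and 113 CPM in the spleen and 1.35 and 1.38 CPM in the liver (-6.33 ± 0.23), and Arg1, the arginase of such macrophages, at 40.1 and 45.1 CPM in the spleen and 0.944 and 0.870 CPM in the liver (-5.55 ± 0.19). The largest falls also included Slc4a1 and Alas2 of red cell precursors, Jchain of plasma cells, Siglech of plasmacytoid dendritic cells, and Atp6v0d2, Slc7a2, Fcna, Rnase6 and Abca13. Atp6v0d2 stood at 12.3 and 14.6 CPM in the spleen and higher, at 25.8 and 30.8 CPM, in the lung. Slc7a2 likewise stood at 12.4 and 11.7 CPM in the spleen and 28.4 and 39.3 CPM in the lung. For the other genes named in this paragraph the lung lay below the spleen.

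The largest rises fell into genes that were high in the liver alone and genes that were high in liver and lung. Among the former, Mmp9, a gelatinase that degrades matrix, stood at 12.7 and 11.4 CPM in the spleen, 104 and 105 CPM in the liver and 25.4 and 19.3 CPM in the lung (3.11 ± 0.12 for liver against spleen, adjusted p = 6.1e-15). Ccdc80, a secreted matrix-associated protein, stood at 1.87 and 1.9 CPM in the spleen, 30.6 and 31.8 CPM in the liver and 4.71 and 5.41 CPM in the lung (4.04 ± 0.18). Cd200r2, a receptor of the CD200R family, stood at 0.608 and 0.562 CPM in the spleen, 12.7 and 10.3 CPM in the liver and 0.821 and 0.353 CPM in the lung (4.29 ± 0.35). Both liver libraries lay above both spleen and both lung libraries for these 3 genes, the difference from lung being 2.23 ± 0.12, 2.62 ± 0.16 and 4.3 ± 0.35 in log2.

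Among the latter, Apbb1ip, which encodes RIAM, an activator of integrins, stood at 41 and 34.7 CPM in the spleen, 364 and 368 CPM in the liver and 451 and 478 CPM in the lung (3.27 ± 0.10, adjusted p = 3.9e-17). Liver was below lung for Atn1 (-0.44 ± 0.08, liver minus lung), Nr1d1 (-1.32 ± 0.19) and Ppp2r2c (-1.3 ± 0.11). For Prrt1, Tubb4a, Slc25a23, Vamp2 and Il17re the difference between liver and lung did not pass the test, with log2 values from -0.31 (Tubb4a) to 0.12 (Prrt1). Lars2, a mitochondrial leucyl-tRNA synthetase, stood at 18.5 and 64.8 CPM in the spleen, where the replicates differed several-fold, 412 and 326 CPM in the liver and 328 and 276 CPM in the lung.

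The same tissue comparison in PSGL1lo cells used 4 other libraries of the same 2 library series. There 7730 genes differed between liver and spleen (57.2%), 3952 higher and 3778 lower in the liver. Of the genes higher in liver PSGL1hi cells, 3114 were also higher in liver PSGL1lo cells, 79.4% of the PSGL1hi and 78.8% of the PSGL1lo genes. Of the lower genes, 2882 were shared, 74.9% and 76.3%, and 35 and 19 genes were called in opposite directions. The difference of the differences was called for 909 genes (6.72%), 570 in which the liver-minus-spleen difference was more positive in PSGL1hi cells (4.22%) and 339 in which it was more negative (2.51%). That count depends on single libraries, being 2446 without liver PSGL1lo replicate 2 and between 315 and 486 without any of 6 others.

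Members of the lists stood among them in both directions. Il13 and Il4 fell further in PSGL1hi cells, with a log2 difference of -3.69 ± 0.20 against -1.89 ± 0.22 in PSGL1lo cells for Il13 (difference -1.8 ± 0.30, adjusted p = 0.001) and of -3.43 ± 0.26 against -1.68 ± 0.25 for Il4 (difference -1.75 ± 0.36, adjusted p = 0.0057). Klf2 was called in opposite directions, 0.48 ± 0.13 in PSGL1hi and -0.53 ± 0.14 in PSGL1lo cells (1.01 ± 0.19, adjusted p = 0.003). Itga1 and Itgae rose less in PSGL1hi than in PSGL1lo cells (-0.91 ± 0.17 and -0.95 ± 0.14, adjusted p = 0.0031 and 0.00028), and Ccr6 rose more (2.33 ± 0.28, adjusted p = 4.8e-05). For Ccl5 (0.37 ± 0.17), Ccl3 (-0.10 ± 0.12), Gzma (0.14 ± 0.31), Tox (0.15 ± 0.10), Lag3 (-0.18 ± 0.11), Ctla4 (0.06 ± 0.12) and Cd69 (-0.21 ± 0.13) the difference between the fractions did not pass the test.

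**Figure D5:**
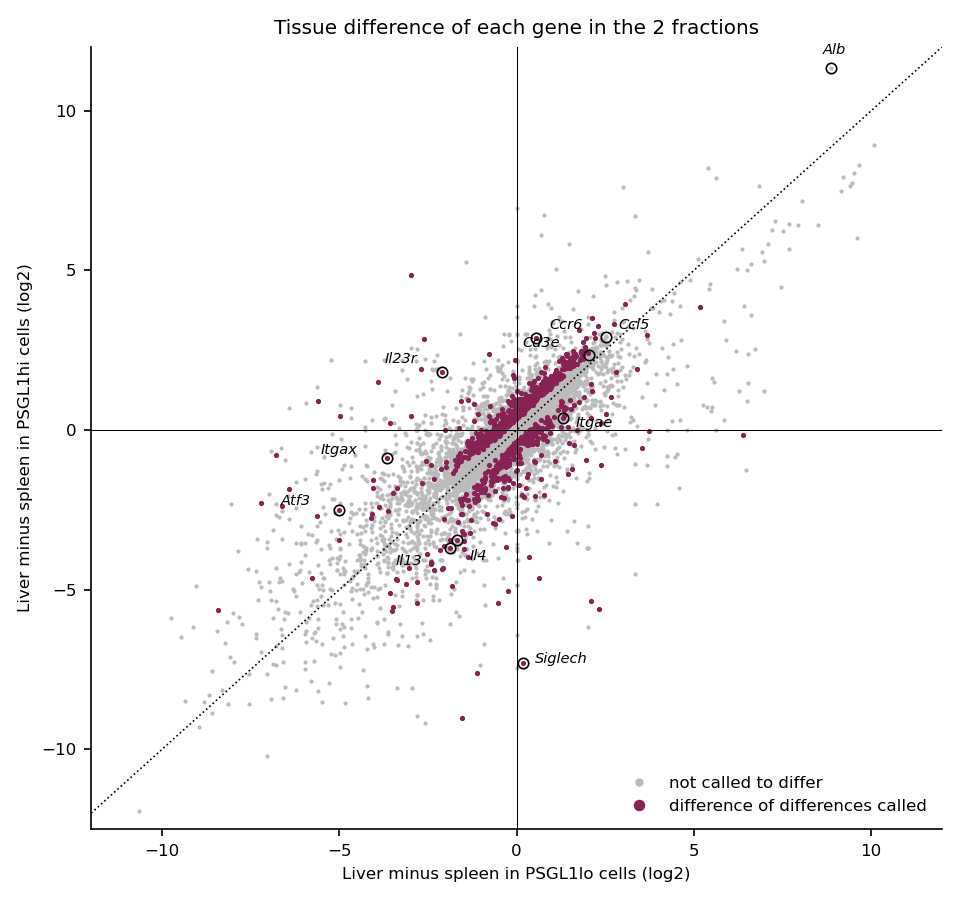
Log2 difference between liver and spleen of each tested gene in PSGL1lo cells (x axis) and in PSGL1hi cells (y axis); dotted line: equal differences; coloured points: the 909 genes whose 2 differences were called different. Most genes follow the line, while Il13, Il4 and Siglech lie below it and Ccr6, Atf3 and Itgax above it.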

How the data were processed

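The deposited table holds counts of reads per gene for 14 libraries of sorted CD4+ T cells. Reads were aligned with TopHat2 2.0.8 to mm9 and counted with HTSeq, per the submitters' processing notes; no annotation or strand setting is named in the sources used here. Library preparation used a Kapa mRNA HyperPrep kit (labels). From the deposited counts, differences were computed with edgeR 4.0.16 (R 4.3.3): genes kept by filterByExpr (13780 of 25017 entries), TMM scaling, 1 mean for each of 7 groups, quasi-likelihood F tests with 7 residual degrees of freedom, and Benjamini-Hochberg adjustment over all genes kept, with a threshold of 0.05; glmTreat tested against 1.5-fold. The 260 histone and small RNA genes among them were left out of counts and names, leaving 13520. A list member kept by the filter only through its level in 1 tissue had to differ, and such members are among those counted.

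Members and lists were chosen with earlier results of these data known. The 31 lists held 586 symbols, of which 584 are in the table. Genes were named by a rule: the 15 largest rises and 15 largest falls past the 1.5-fold test with at least 10 CPM in the higher group, up to 6 called members of each list with the largest change, the most abundant member not called, and a preset group. Apoe, Cd3g, E2f1, Fasl, Gata3, H2-Aa, Havcr2, Mcm5, Mki67, Ms4a1, Ncr1, Prf1, Trf, Vsig4, Zeb2 and the globin genes lie outside it and were named after their values were seen. Libraries held 21346229 to 28033026 counts in the 4 compared, so that 3 counts, the floor used for genes at 0, correspond to 0.109 to 0.14 CPM. Alternatives were RLE scaling, no filter, a replicate block, histone and small RNA genes left out before the fit, each library left out, the 4 libraries alone, DESeq2 1.42.0 and a threshold of 0.01. Some genes that the rule names are not reported here, though they enter every fit and list count. The fitting step was also run on counts simulated from the fit, with known changes set in some genes. Those counts held no effect of library series, so that run cannot bear on the confounding of tissue and series. Promoter sequences are from RefSeq (GRCm38.p6), whose coordinates are unrelated to the mm9 alignment.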

Additional observations from a re-analysis of the deposited data

Results flagged for a closer look

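For 64 of the 226 named genes considered here (28.3%) the liver-minus-spleen difference in PSGL1hi cells differed from that in PSGL1lo cells by edgeR's quasi-likelihood test of the difference itself. The share over all genes was 6.72%. Named genes were picked largely for a big difference in PSGL1hi cells, which is 1 side of this test. That choice raises their share, so the 2 shares cannot be compared. The values below are PSGL1hi minus PSGL1lo on the log2 scale, so a positive value means that the difference was more positive in PSGL1hi cells. DESeq2 did not call Egr1, Lars2, Ppp2r2c, Il22, C1qa and C1qc. Most fits that left out 1 library lost the calls of Egr1, Lars2, Ppp2r2c, Il22, C1qc, C1qb, Rnase6, Maff and Abca13. They also lost those of Foxo1, Cd40lg, Tnf, Pparg, Il6, Tnfrsf26, Ccna2, Tpi1 and Klrk1. Of the 64, 33 were called in all 8 fits that left out 1 library and 58 by DESeq2, and none changed sign. Leaving out spleen PSGL1lo replicate 2 lost 27 of the calls, liver PSGL1lo replicate 1 lost 24, spleen PSGL1hi replicate 2 lost 22, liver PSGL1hi replicate 2 lost 20, liver PSGL1hi replicate 1 lost 18, spleen PSGL1lo replicate 1 lost 16 and spleen PSGL1hi replicate 1 lost 11.

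Genes of homing and residence stood on both sides: Xcl1 at -1.0, Itgae at -0.95, Itga1 at -0.91 and Ccr2 at -0.79, against Itgax at 2.79, Ccr6 at 2.33, Klf2 at 1.01, Gcnt1 at 0.87, Gpr183 at 0.82, S1pr1 at 0.79, Itgal at 0.73, Il7r at 0.57 and Foxo1 at 0.49. Of the naive, memory and follicular help lists, the values were Bach2 at 1.03, Tcf7 at 0.99, Tox2 at 0.87, Satb1 at 0.7, Bcl2 at 0.58, Il21 at 0.58 and Cd40lg at 0.46, against Cebpa, a myeloid factor held by the follicular help list, at -1.56. Of the Th2 list, the values were Il13 at -1.8, Il4, which is also in the follicular help list, at -1.75, Pparg at -0.92 and Il1rl1 at -0.74. Among other cytokines and receptors, Il22 stood at 5.44, where the spleen PSGL1hi libraries held 3 counts or fewer, Il6 at 2.94, Tgfbr3 at 0.78, Il12rb2 at 0.66, Socs3 at 0.55 and Tnf at 0.52.

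Genes of regulation and costimulation gave 1.82 for Cd244a, 0.69 for Tnfrsf26, 0.64 for Tigit, -0.48 for Tnfrsf4, -0.68 for Tnfrsf9, -1.25 for Cd83, -1.57 for Lrrc32 and -1.75 for Cd70. Early response genes gave 2.51 for Atf3, 1.08 for Maff and 0.69 for Egr1. Dividing-cell genes were more negative, with Ccnb1 at -1.75, Cdk1 at -1.2, Kif11 at -0.83, Top2a at -0.63 and Ccna2 at -0.56, and so was Tpi1 at -0.47. Most genes of other cell types were more negative as well. They included Siglech at -7.49, Rnase6 at -2.15, Arg1 at -2.06, C1qa at -1.52, C1qc at -1.3 and C1qb at -1.27. Hmox1 stood at -1.05, Cd8a at -0.88 and Klrk1 at -0.67, whereas Abca13 stood at 2.76. Itgax, placed above with homing and residence, was also positive. In the PSGL1lo libraries of liver and spleen Siglech lay at 0.172 CPM or below. Among the largest rises, Tubb4a stood at 1.39, Lars2 at 1.38, Apbb1ip at 0.96, Atn1 at 0.88, Vamp2 at 0.85 and Ppp2r2c at -1.32.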

How the results depend on the processing

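The number of genes that differed between liver and spleen PSGL1hi cells, 7774, lay between 6321 (threshold 0.01) and 8132 (the 4 libraries alone, with 2 residual degrees of freedom) over all alternatives, and was 7468 by DESeq2. The replicate deviations of the 2 groups correlated at -0.049. Between the PSGL1lo and PSGL1hi cells of one organ they correlated at 0.015 in the spleen, 0.07 in the liver and 0.084 in the lung. As the animals are not given, such values cannot show whether replicate numbers pair the libraries. With the replicate block 3894 genes were higher and 3808 lower. Leaving out 1 library moved the count of genes whose tissue difference differed between PSGL1hi and PSGL1lo cells, 909, to between 315 and 2446 (more positive 197 to 1551, more negative 116 to 895), and the count higher in liver than in lung, 2513, to between 1664 and 1944. No value reversed. Of the 234 named genes, 213 kept direction and side of the threshold under every alternative, and 16 of 620 list counts moved by over 1.5 times. Genes near 3 counts carry wide errors. The cause of these shifts was not tested.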

Other observations

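Inflammatory cytokines that macrophages and other innate cells make were low in the liver fraction. Il1b stood at 3.7 and 3.24 CPM in the spleen, 0.629 and 0.218 CPM in the liver and 48.1 and 52.2 CPM in the lung (liver minus spleen -3.09 ± 0.39, adjusted p = 6.3e-07 by edgeR's quasi-likelihood test). Il6 stood at 9.59 and 8.69 CPM in the spleen and 2.02 and 0.870 CPM in the liver (-2.69 ± 0.36). The liver libraries lay below both other tissues for both genes. The summed myeloid level was also lowest in the liver, and its part in these values was not tested.

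Receptors and ligands of the TNF family moved in both directions. Tnfsf13b, which encodes the B cell survival factor BAFF, stood at 6.27 and 5.32 CPM in the spleen and 16 and 14.1 CPM in the liver (1.38 ± 0.15, adjusted p = 1.1e-07 by the same test), above the lung at 7.3 and 8.31 CPM. Tnfrsf1a, a receptor for TNF, stood at 24.4 and 24.2 and 63.4 and 59.7 CPM in spleen and liver (1.34 ± 0.10). Tnfrsf4, the costimulatory receptor OX40, was lower in the liver, at 128 and 141 against 212 and 202 CPM (-0.63 ± 0.08), and so was Tnfrsf14, the receptor HVEM (-0.94 ± 0.11). In the integrated stress response list Atf4, its central factor, rose from 205 and 221 to 305 and 315 CPM (0.54 ± 0.08) and Ddit3, its target CHOP, from 11.2 and 12.9 to 21.8 and 23.9 CPM (0.92 ± 0.11), whereas the serine synthesis genes Psat1 (-0.65 ± 0.08) and Phgdh (-0.66 ± 0.15) fell. The anti-apoptotic gene Bcl2 stood at 234 and 228 CPM in the spleen, 386 and 379.9 CPM in the liver and 269 and 280.2 CPM in the lung (0.73 ± 0.08), so the liver exceeded both. Foxo1, a factor that sustains homing and survival genes, stood at 77.3 and 57.1 CPM in the spleen and 161 and 179 CPM in the liver (1.34 ± 0.10), while S1pr4, a sphingosine-1-phosphate receptor, was lower in the liver at 136 and 137 against 279 and 248 CPM (-0.95 ± 0.10).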
